A study of Homo sapiens with 12 samples.

Results

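B4GAT1, DPY19L1, OSTM1, ZCCHC24, ZFTA, VASH2, C14orf132, TTLL1 and STON1 are 9 of the 19774 genes measured, selected on their change from control: each was far below, or always below, control cells once miR-200 microRNAs were supplied. They were not grouped by a shared pathway. Their differences from control chose them and are therefore given here as values, with no test and with no weight as evidence. The arrays hold 23 probe sets for the 9 genes, among 40914 that name a single gene. A probe set is a group of short probes read together as one log2 intensity, so that a difference of 1 is a 2-fold difference.

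The data come from 12 Affymetrix arrays of 3 established cell lines, HUTU-80, MDST8 and NCI-H716, which are labelled as colorectal cancer and whose own miR-200 loci are methylated. HUTU-80 is listed by cell banks as a line from the duodenum. Control cells of each line (3 arrays) were set beside cells transduced with a lentivirus for the miR-200c141 cluster (4 arrays), with one for the miR-200ba429 cluster (3 arrays), or with both (2 arrays, MDST8 and NCI-H716 only). Cells were sorted for GFP after 48 h. Cells with both clusters were sorted miR-200ba429 cells to which the second virus, miR-200c141, was given 24 h later. RNA was taken on day 7. HUTU-80 has a pair of miR-200c141 arrays, titled 1:3 and 1:5, whose meaning the labels do not give. No array of cells transduced a second time without a second cluster was used here, so a second transduction and the second cluster cannot be told apart. The labels do not say that arrays of a group came from separate cultures. A line's only control array enters every change given for that line. Whether control cells carried an empty virus is not stated in the labels, so that transduction itself and the microRNAs cannot be told apart in a change from control.

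Levels below 5.43, the highest value among 23 probe sets designed to bind no human transcript, are called below background, and a fold against such a level is given as a lower bound ("at least"). ZEB1, a transcriptional repressor of epithelial genes and the textbook target of the family, was lower on all 9 construct arrays, by 0.13 to 2.24 log2 units, with the smallest difference in MDST8 with miR-200ba429. Of 10 measured markers of the intestinal epithelium, 8 were above background in NCI-H716 control cells but only 1 each in HUTU-80 (KRT8) and MDST8 (KRT18). Of 5 mesenchymal markers, 4 were above background in HUTU-80 control cells, 5 in those of MDST8 and 2 in those of NCI-H716. The marker lists also differed between control and construct arrays. The epithelial mean was 4.15 in HUTU-80 control cells and 5.12 to 5.38 with a construct (3 to 4 above background), 4.20 and 4.36 to 4.47 in MDST8, and 7.19 and 8.34 to 9.04 in NCI-H716. The mesenchymal mean, which includes ZEB1, was 9.95 and 9.03 to 9.43 in HUTU-80, 10.58 and 9.53 to 10.51 in MDST8, and 6.43 and 5.67 to 6.30 in NCI-H716. Their part in the changes of the 9 genes was not tested. Markers of immune cells (3 measured) and of endothelial cells (3 measured) were below background on every array.

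MicroRNAs of the miR-200 family bind messenger RNAs through their seed, the bases near the 5′ end, and lower the level or translation of their targets. In epithelial cells they hold ZEB1 and ZEB2 down, and both repressors in turn silence the miR-200 genes. The arrays measure RNA levels, which do not show whether a message itself carries seed sites. The mature sequences supplied by the constructs' clusters are shown because their seeds divide the family members into groups. They are written 5′ to 3′ from RefSeq (GRCh38.p14), with the seed (bases 2 to 8) in capitals, those of the miR-200c141 cluster first.
hsa-miR-200c-3p: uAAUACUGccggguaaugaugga
hsa-miR-141-3p: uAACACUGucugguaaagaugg
hsa-miR-200b-3p: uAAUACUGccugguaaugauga
hsa-miR-200a-3p: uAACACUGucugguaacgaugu
hsa-miR-429: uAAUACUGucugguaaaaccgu

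The first lies at chr12:6963742-6963764 and the second at chr12:6964155-6964176, so that the miR-200c141 pair spans 435 bases. The others lie at chr1:1167160-1167181, chr1:1167916-1167937 and chr1:1169055-1169076, a span of 1917 bases, all on the plus strand. The seed AAUACUG is shared by 3 of them (miR-200c, miR-200b and miR-429) and AACACUG by 2 (miR-141 and miR-200a). The seeds differ by U4C, the base of miR-200c first and the position counted from the 5′ end. Each cluster therefore holds both seeds, and cells with either construct received both. The levels of the microRNAs themselves were not measured on these arrays.

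Among the 9 genes a pair of patterns was seen. Genes were chosen as far below, or as always below, control, so a steep and a shallow set cannot be told apart from the choice. B4GAT1, DPY19L1, OSTM1, ZCCHC24, ZFTA and VASH2 read lowest with both clusters in each line that has such an array, with signals 1.81 to 3.14 log2 units below control. Levels below background leave only lower bounds for VASH2 (at least 1.71 in MDST8 and 1.16 in NCI-H716). The same holds in NCI-H716 for ZCCHC24 (at least 1.46) and ZFTA (at least 2.24). There VASH2 and ZCCHC24 were below background with miR-200c141 too, so which array is lowest is not measured for them. The changes of these 6 genes with a single cluster varied widely, from 0.10 (VASH2 in MDST8) to -2.48 (VASH2 in NCI-H716, at a level below background), both with miR-200c141. C14orf132 and TTLL1 were about as low with a single cluster as with both. STON1 cannot be placed, since its controls in MDST8 and NCI-H716 were below background.

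B4GAT1 encodes a Golgi glucuronyltransferase that primes the sugar chain of alpha-dystroglycan on which LARGE enzymes build, the chain through which the protein holds laminin. Its only probe set read 8.04 in HUTU-80 control cells, 7.18 and 7.31 on the miR-200c141 arrays (1:3, then 1:5) and 7.47 with miR-200ba429. The MDST8 arrays read 8.43 in control cells, 7.57 with miR-200c141, 8.12 with miR-200ba429 and 5.86 with both. The NCI-H716 arrays read 8.48, 7.04, 7.82 and 6.29 in the same order. Every construct array was below its control, miR-200c141 lay below miR-200ba429 in each line, and the arrays with both clusters were lowest, at 5.94-fold below control in MDST8 and 4.55-fold in NCI-H716.

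DPY19L1 belongs to the C-mannosyltransferases, enzymes of the endoplasmic reticulum that attach mannose to tryptophan residues of secreted and membrane proteins. HUTU-80 cells had 9.09 in control, 8.37 and 8.43 with miR-200c141 and 8.70 with miR-200ba429. MDST8 cells had 10.20 in control, 9.58 and 9.90 with the single clusters, miR-200c141 first, and 7.52 with both. NCI-H716 cells had 9.63, 8.52, 9.48 and 7.53 in that order. Single clusters left DPY19L1 within 1.11 of control, and both brought it 6.40-fold below control in MDST8 and 4.26-fold in NCI-H716.

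A further DPY19L1 probe set, above background on all 12 arrays, showed much smaller differences. It was below control on only 4 of the 9 construct arrays, with changes from -0.82 to 0.44. It read 8.22 in MDST8 control cells against 7.40 with both clusters, and 8.03 against 7.69 in NCI-H716. Its changes correlated with those of the probe set above (Pearson r = 0.95 over 8 construct samples that share the controls of their lines), with the arrays with both clusters lowest on each. The order was not the same throughout, and the largest difference between the changes of the probe sets was 1.86. Which transcripts each probe set reads was not examined here.

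OSTM1 is the beta subunit of ClC-7, the chloride and proton exchanger of lysosomes and of the acid-secreting border of osteoclasts, and is needed for the stability of that exchanger. In HUTU-80 its level was 9.12 in control cells, 7.30 and 7.69 with miR-200c141 and 8.42 with miR-200ba429. For MDST8 the values were 8.79 in control, 7.75 with miR-200c141, 8.67 with miR-200ba429 and 5.69 with both. For NCI-H716 they were 8.40, 6.59, 8.0 and 6.27. OSTM1 stands out for the gap between the single clusters: with miR-200c141 it was 3.53-fold and 2.69-fold below control on the HUTU-80 arrays, 2.05-fold in MDST8 and 3.49-fold in NCI-H716, but with miR-200ba429 only 1.63-fold, 1.08-fold and 1.32-fold. With both clusters it was 8.56-fold below control in MDST8 and 4.36-fold in NCI-H716.

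The other OSTM1 probe sets above background behaved alike. The second read 7.70, 7.08, 7.79 and 5.33 in MDST8 (control, miR-200c141, miR-200ba429, both) and 7.25, 6.32, 7.29 and 5.72 in NCI-H716. The third read 6.92, 6.10, 6.68 and 4.43 in MDST8 and 6.47, 5.01, 5.99 and 4.29 in NCI-H716. On the second, miR-200ba429 lay slightly above control in both lines, so that 7 of its 9 construct arrays were below control against 9 of 9 for the others. In HUTU-80 the second read 8.49 in control cells, 7.14 and 7.11 with miR-200c141 and 7.93 with miR-200ba429, and the third 7.44, 5.57, 5.89 and 6.80.

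ZCCHC24 encodes a zinc finger protein of the CCHC type. Its levels in HUTU-80 were 6.37 in control, 4.4 and 5.2 with miR-200c141 and 5.15 with miR-200ba429, so that all 3 construct arrays were below background. Its levels in MDST8 were 8.10, 7.52, 7.91 and 5.61, from control through miR-200c141 and miR-200ba429 to both. Its levels in NCI-H716 were 6.89, 4.53, 5.97 and 4.13. In MDST8 a single cluster left it close to control and both brought it 5.59-fold below. In NCI-H716 miR-200c141 alone already took it below background, and the fold with both is known only as at least 2.76. The second probe set read 7.45, 6.90, 7.48 and 4.42 in MDST8, 6.43, 3.89, 5.19 and 3.76 in NCI-H716, and 5.83, 3.83, 4.79 and 4.42 in HUTU-80. It had the same order within MDST8 and NCI-H716 apart from a reading 0.03 above control in MDST8 with miR-200ba429.

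ZFTA encodes a nuclear zinc finger protein best known as the partner fused to RELA in a class of ependymoma. HUTU-80 arrays gave 7.99 for control, 7.44 and 7.36 on the miR-200c141 pair and 7.73 for miR-200ba429. MDST8 arrays gave 9.16 for control, 9.11 for miR-200c141, 9.01 for miR-200ba429 and 7.35 for both. NCI-H716 arrays gave 7.67, 6.55, 6.97 and 4.62. MDST8 cells with either single cluster were within 0.15 of control, yet with both they were 3.50-fold below. In NCI-H716 the single clusters stood 2.16-fold and 1.62-fold below control and both at least 4.71-fold, the level being below background there.

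VASH2 encodes a vasohibin, which with its partner SVBP removes the terminal tyrosine from alpha-tubulin. It was below background on every HUTU-80 array, at 5.18 in control, 3.82 and 4.49 with miR-200c141 and 4.08 with miR-200ba429. In MDST8 it read 7.14 in control cells, 7.24 with miR-200c141, 7.10 with miR-200ba429 and 4.83 with both. In NCI-H716 it read 6.59, 4.11, 4.84 and 3.45. MDST8 showed no reduction beyond 0.04 with either cluster alone and at least a 3.28-fold reduction with both, whereas in NCI-H716 each single cluster alone took the level below background. The bound for both clusters in NCI-H716 is at least 2.24-fold. A second VASH2 probe set read 5.82, 5.70, 5.75 and 3.98 in MDST8 and 5.52, 3.30, 3.90 and 3.44 in NCI-H716. On it the array with both clusters again stood far below the rest in MDST8, while in NCI-H716, where all construct levels were below background, miR-200c141 read lower than both.

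**Figure D1:**
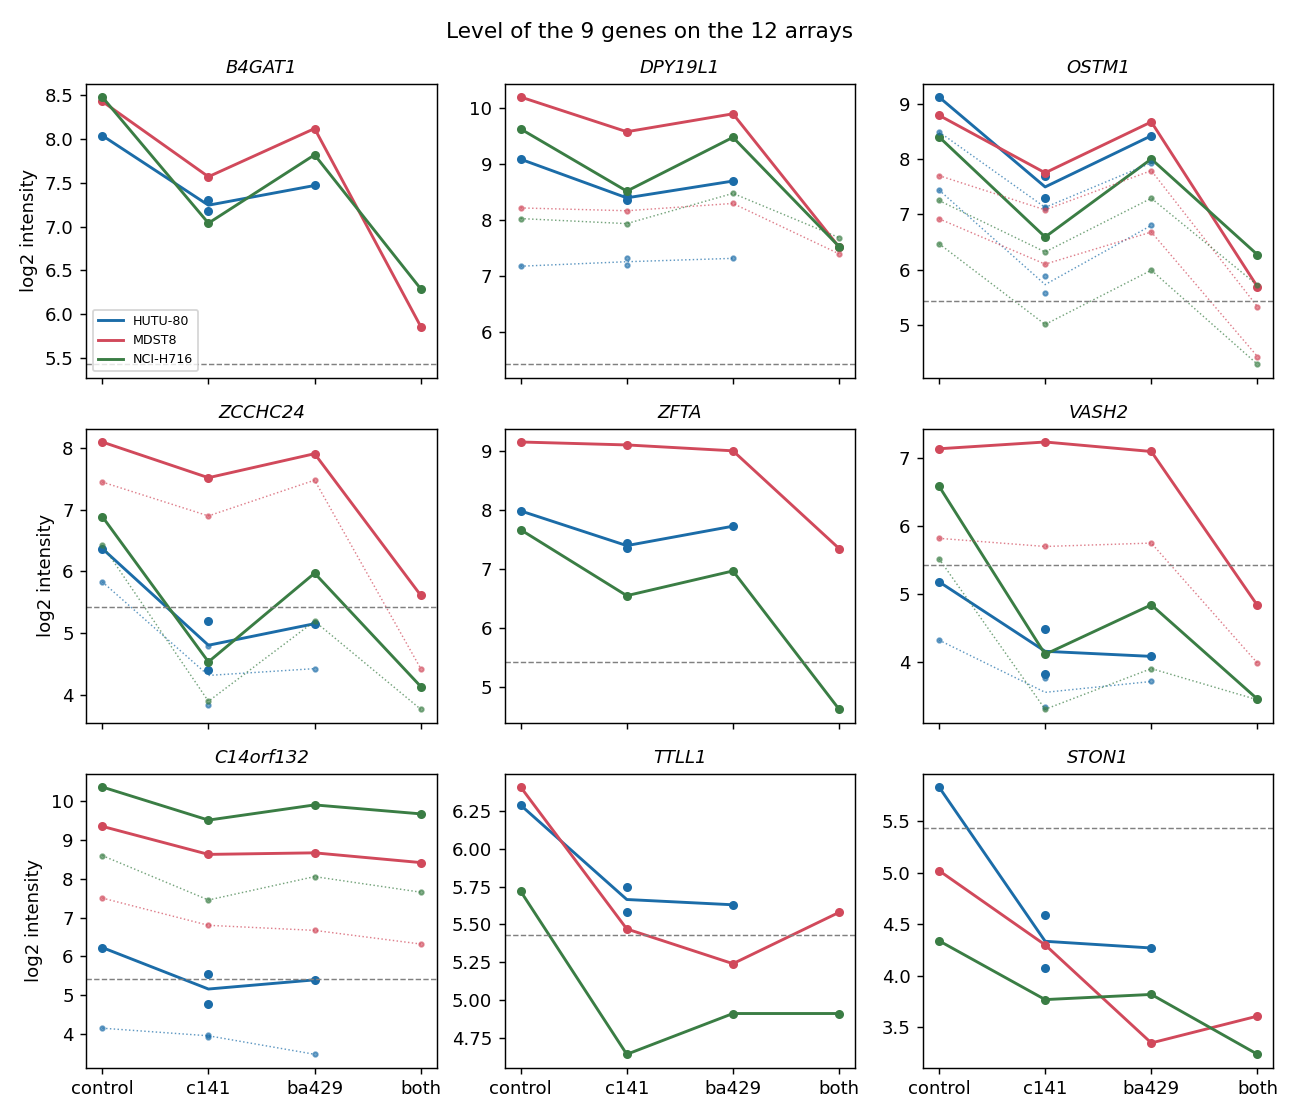
Log2 intensity (vertical axis) of each of the 9 genes by construct (horizontal axis: control, miR-200c141, miR-200ba429, both), 1 point per array and 1 colour per line; solid lines join the probe set with the highest mean, with the pair of HUTU-80 miR-200c141 arrays averaged, dotted lines the other probe sets above background in a control, and the dashed line marks the background of 5.43. The red MDST8 lines of ZFTA and VASH2 stay level until both clusters are present, while those of C14orf132 and TTLL1 drop with a single cluster and little further.

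C14orf132 stayed high in every construct of the lines where it was abundant. In NCI-H716 it read 10.35 in control cells, 9.5 with miR-200c141, 9.89 with miR-200ba429 and 9.66 with both. In MDST8 it read 9.34, 8.62, 8.66 and 8.41. HUTU-80 had 6.23 in control, 4.79 and 5.54 with miR-200c141 and 5.40 with miR-200ba429. Every construct array was below control, by 0.46 to 1.44, but cells with both clusters were no more than 1.90-fold below control in MDST8 and 1.62-fold in NCI-H716, and in NCI-H716 miR-200c141 alone was lower than both. The second probe set read 7.50, 6.80, 6.67 and 6.32 in MDST8 and 8.59, 7.45, 8.05 and 7.65 in NCI-H716, and was below background in HUTU-80. Its changes did not follow those of the first probe set (Pearson r = -0.06 over 8 construct samples), with a largest difference of 0.87, although 9 of 9 construct arrays were below control on each.

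TTLL1 is the catalytic subunit of a polyglutamylase complex that adds glutamate chains to tubulin tails. Its level was 6.29 in HUTU-80 control cells, 5.75 and 5.58 with miR-200c141 and 5.63 with miR-200ba429. It was 6.41, 5.47, 5.24 and 5.58 in MDST8 from control to both. It was 5.72, 4.64, 4.91 and 4.91 in NCI-H716, where all 3 construct arrays were below background. TTLL1 was below control on 9 of 9 arrays by 0.54 to 1.17, and both clusters did not give the lowest value in either line. The reduction with both was 1.78-fold in MDST8 and at least 1.22-fold in NCI-H716.

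STON1 encodes a stonin, a protein related to the medium chain of clathrin adaptors. Only the HUTU-80 control, at 5.83, was above background. HUTU-80 cells with a construct had 4.08, 4.59 and 4.27 (miR-200c141 1:3, 1:5, then miR-200ba429), at least 1.32-fold below it. The MDST8 values were 5.02, 4.30, 3.35 and 3.61, and those of NCI-H716 were 4.34, 3.77, 3.82 and 3.24. STON1 was thus below control on 9 of 9 arrays, but in MDST8 and NCI-H716 this order lies below background and gives no fold.

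The remaining 8 probe sets of the 9 genes were below background on all 12 arrays, between 2.29 and 4.66, and their changes lay between -0.95 and 0.37. They belong to DPY19L1 (3), OSTM1, ZFTA, VASH2, TTLL1 and STON1 (1 each).

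**Figure D2:**
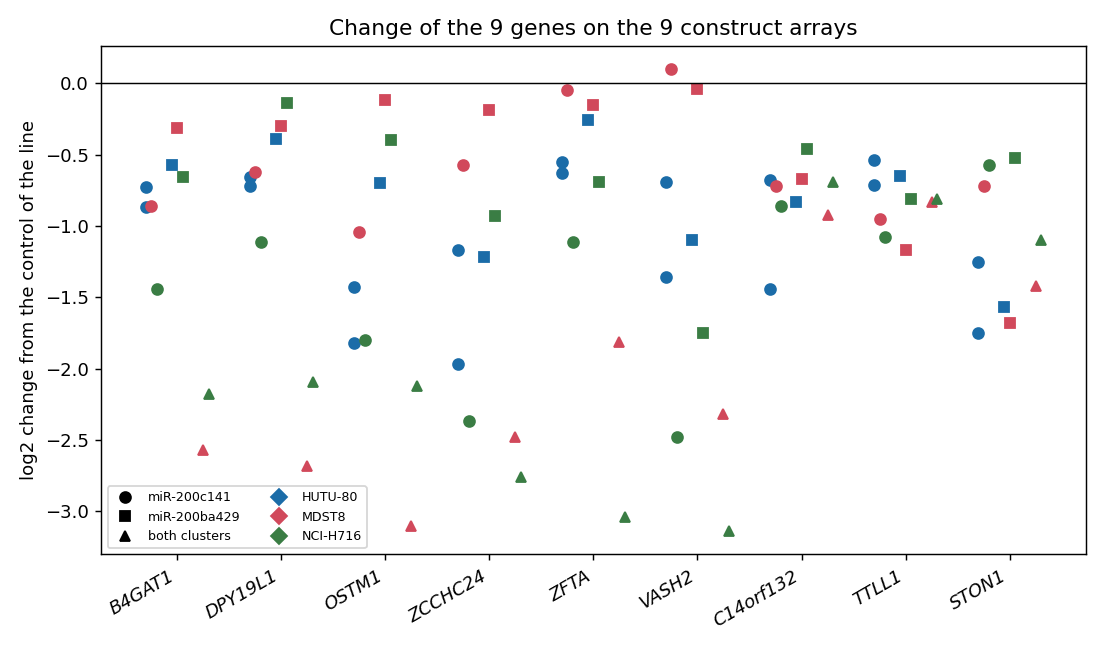
Log2 difference from the control of the same line (vertical axis) for the 9 genes (horizontal axis) on each of the 9 construct arrays; colour gives the line and symbol the construct. Triangles (both clusters) lie below all other symbols for B4GAT1, DPY19L1, OSTM1, ZCCHC24 and ZFTA and among the other symbols for C14orf132, TTLL1 and STON1; the only point above 0 is VASH2 in MDST8 with miR-200c141, at 0.10.

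These changes were then set beside all genes measured the same way. Of the 7 genes above background in all 3 controls (STON1 and VASH2 are not), 7 were below control on every construct array, which 5.55% of the 7861 such genes were. That count is what the choice of the genes made it. With limma, a linear model with the line as a term, 0% of the 19774 genes passed an adjusted p of 0.05 against control when the constructs were pooled or as either single cluster, the smallest adjusted p being 0.3108, 0.1165 and 0.7688. Unadjusted p was under 0.05 for 1851, 1302 and 1214 genes. With both clusters 6.14% passed (3.81% fell and 2.33% rose). The fitted differences for the 9 genes, given without a test, were -0.79 to -1.50 for any construct (median -1.14, against 0.001 over all genes). Their medians were -0.93 with miR-200c141, -0.66 with miR-200ba429 and -2.38 with both, against 0.003, -0.005 and 0 over all genes.

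The ranks by construct describe the patterns again and do not test them, since genes were chosen as far below, or as always below, control. With both clusters, B4GAT1 (-2.35 ± 0.22, fitted log2 change ± SE), DPY19L1 (-2.38 ± 0.19), OSTM1 (-2.68 ± 0.30), ZCCHC24 (-2.71 ± 0.35), ZFTA (-2.41 ± 0.24) and VASH2 (-2.73 ± 0.44) ranked between 3 and 11 among the falls of all 19774 genes. C14orf132 (-0.87 ± 0.14) ranked 547, TTLL1 (-0.74 ± 0.22) ranked 823 and STON1 (-1.40 ± 0.29) ranked 126. With miR-200ba429, C14orf132 (-0.66 ± 0.12) ranked 96, B4GAT1 (-0.51 ± 0.19) ranked 265 and DPY19L1 (-0.28 ± 0.17) ranked 1699. With miR-200c141, ZCCHC24 (-1.50 ± 0.30) ranked 3, OSTM1 (-1.49 ± 0.26) ranked 4 and ZFTA (-0.58 ± 0.21) ranked 217. Fitted values that include levels below background are differences of signal and not measured folds. This holds for STON1 in all lines, VASH2 in all lines, TTLL1 in MDST8 and NCI-H716, ZCCHC24 and C14orf132 in HUTU-80, and ZCCHC24 and ZFTA in NCI-H716. These SE rest on 11 samples, the HUTU-80 miR-200c141 pair averaged, and on n = 2 for both clusters.

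Of the 8 genes above background in the control, the array with both clusters was the lowest of the line for 7 in MDST8 (all but TTLL1), where this held for 37.6% of genes. In NCI-H716 it was the lowest for 6 of 8 (all but TTLL1 and C14orf132), where it held for 38.7%. In both lines it was the lowest for 6 of 8, against 22.2% of genes. STON1 was left out here, as its controls in these lines are below background. In NCI-H716, VASH2 and TTLL1 were below background with every construct, and ZCCHC24 with miR-200c141 and with both, so their order there is not measured. Since the steep falls with both clusters entered the choice, these counts describe the genes and support nothing.

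Whether both clusters together gave more than the sum of their separate changes differed between MDST8 and NCI-H716, with 1 array per construct in each line and hence no test. In MDST8 the difference with both exceeded the sum of the single changes for the 6 genes of the first pattern and not for C14orf132 or TTLL1, where 50.3% of genes were lower than the sum. VASH2 was the extreme, with a sum of 0.05 and a change of -2.32 with both. OSTM1 had a sum of -1.15 against -3.10, DPY19L1 -0.92 against -2.68, ZCCHC24 -0.76 against -2.48, ZFTA -0.20 against -1.81 and B4GAT1 -1.17 against -2.57.

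In NCI-H716 only B4GAT1 (-2.10 against -2.18), DPY19L1 (-1.25 against -2.09) and ZFTA (-1.81 against -3.04) were lower with both than the sum, 3 of 8 genes, where 56.9% of all genes were. OSTM1 had a sum of -2.21 against -2.12 with both. ZCCHC24 had -3.29 against -2.76 and VASH2 -4.23 against -3.14, but ZCCHC24 was below background with miR-200c141 and with both, and VASH2 and TTLL1 with every construct, so that sum and change are not comparable for these 3. Of the 4 genes above background on all NCI-H716 arrays, B4GAT1 and DPY19L1 were lower with both than the sum and OSTM1 and C14orf132 were not. The NCI-H716 medians carry the same limit. The median of the 8 genes was -2.40 with both in MDST8 against a sum of -1.04, and -2.15 against -1.99 in NCI-H716. The medians with both clusters were thus close, and the changes with single clusters were larger in NCI-H716: the median with miR-200c141 was -1.28 there and -0.67 in MDST8, and with miR-200ba429 -0.67 and -0.24.

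For ZEB1 the same comparison also differed between the lines. In MDST8 its single changes summed to -1.58 against -2.24 with both. In NCI-H716, where the genes above were split, they summed to -3.0 against -1.81, so that ZEB1 was not lower than the sum. A measure of RNA quality moved with the arrays of both clusters. The signal of the 3′ end of ACTB over its 5′ end was 2.02 log2 units with both clusters in MDST8 against at most 1.54 on the other MDST8 arrays, and 2.63 against at most 2.41 in NCI-H716. The GAPDH signal gave 0.383 in MDST8 where the other arrays reached 0.324, and 0.351 in NCI-H716 where they reached 0.325. The part of RNA quality in the values with both clusters was not tested.

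**Figure D3:**
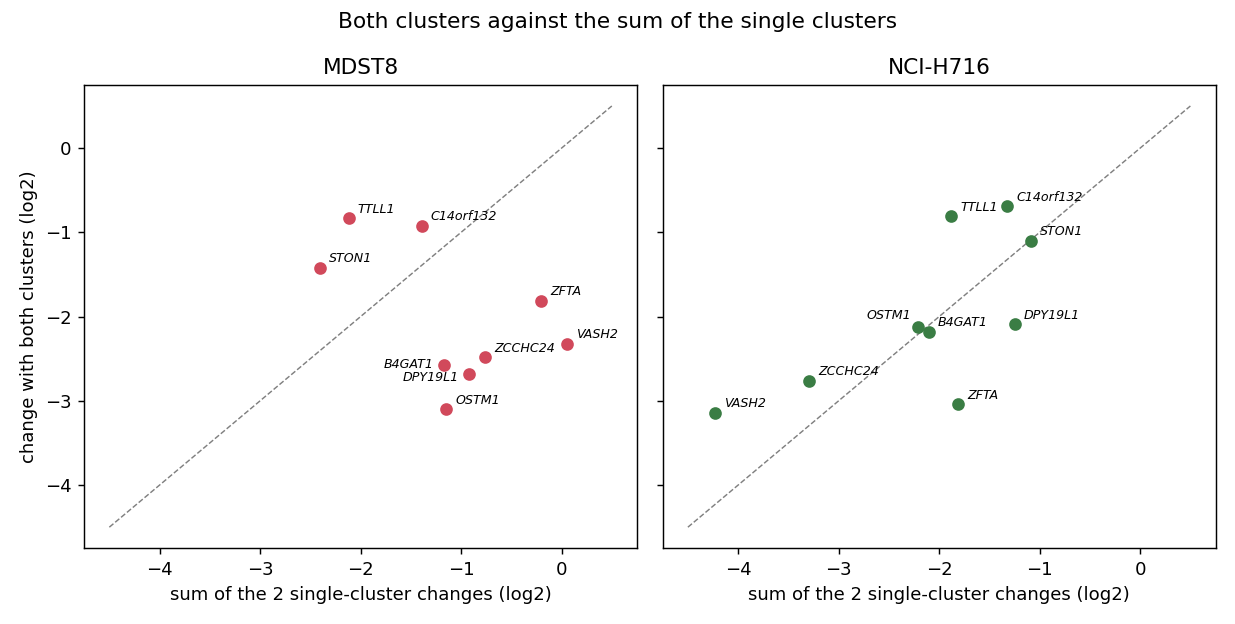
Log2 change with both clusters (vertical axis) against the sum of the changes with miR-200c141 and with miR-200ba429 (horizontal axis) for the 9 genes in MDST8 and NCI-H716, all from the control of the line; the dashed line marks equality, and STON1, below background in both controls, is drawn but not counted. In MDST8 6 genes lie below the line, OSTM1 at -3.10 with both; in NCI-H716 most lie near or above it, VASH2 with a sum of -4.23 and -3.14 with both.

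The single clusters were then compared with each other, a comparison in which the control cancels. How far falls with miR-200c141 alone entered the choice of the genes is not known, and such a choice would tilt the difference. With limma 0% of 19774 genes passed (smallest adjusted p 1.0000), and 705 had an unadjusted p under 0.05, or 3.57%. None of the 9 genes was called (limma adjusted p = 1.0000 for each). OSTM1 was lower with miR-200c141 than with miR-200ba429 by a fitted difference of -1.08 ± 0.26 (SE), and its differences in the lines were -0.92 (HUTU-80), -0.92 (MDST8) and -1.40 (NCI-H716). The fitted difference was -0.53 ± 0.17 for DPY19L1, -0.52 ± 0.19 for B4GAT1 and -0.72 ± 0.30 for ZCCHC24. In these 4 genes all 3 lines had the same sign.

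The fitted differences of the other 5 genes were smaller. C14orf132 had -0.22 ± 0.12, ZFTA -0.22 ± 0.21 and VASH2 -0.17 ± 0.38, the last with the sign turned in HUTU-80 (0.08) and MDST8 (0.14). TTLL1 had 0.00 ± 0.19. STON1 had 0.32 ± 0.25, its MDST8 array with miR-200ba429 being the lower by 0.96 at levels below background. For 5 of the 7 genes above background in all controls, miR-200c141 was below miR-200ba429 in each of the 3 lines (B4GAT1, DPY19L1, OSTM1, ZCCHC24 and C14orf132), against 12.8% of genes. The HUTU-80 pair was averaged for this count. C14orf132 read 4.79 (1:3) and 5.54 (1:5) against 5.40 with miR-200ba429 in HUTU-80, and its MDST8 difference was -0.05. On its second probe set miR-200c141 was the higher in HUTU-80, below background, and in MDST8 (change -0.70 against -0.82). The amount of each microRNA made from each virus is not known here, so a stronger construct and a more effective cluster cannot be told apart.

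**Figure D4:**
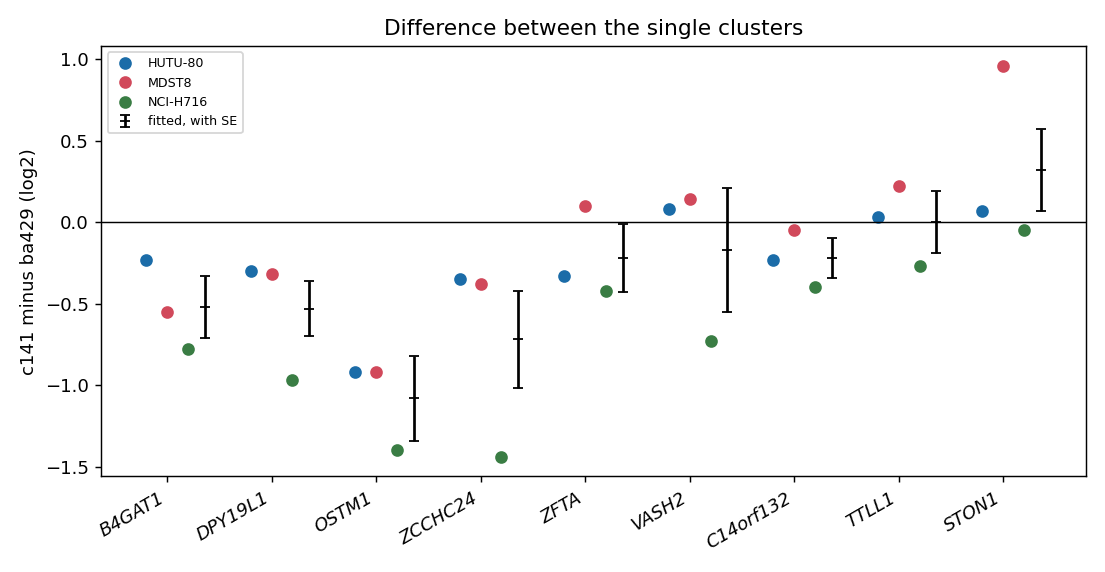
Level with miR-200c141 minus level with miR-200ba429 (vertical axis, log2) for the 9 genes (horizontal axis), 1 coloured point per line, with the limma estimate and its SE in black. OSTM1 lies lowest, at -1.08 ± 0.26. With the pair of HUTU-80 miR-200c141 arrays averaged, the points of B4GAT1, DPY19L1, OSTM1, ZCCHC24 and C14orf132 are below 0 in all 3 lines.

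The level of each gene between lines was tested with the construct as a term over all arrays. The choice is not stated to use this level, but the line term averages construct arrays, whose falls chose the genes. A fall that differs between lines therefore enters these differences. Against HUTU-80, 5 of the 9 genes differed in MDST8, where 43.3% of all genes did. All 5 were higher in MDST8, as 20.5% of all genes were. In NCI-H716 5 differed from HUTU-80 (45.6% of all genes), and 6 differed between NCI-H716 and MDST8 (51.7%). C14orf132 differed most, being 3.25 ± 0.12 higher in MDST8 than in HUTU-80 (limma adjusted p = 1.67e-09), 4.35 ± 0.12 higher in NCI-H716 than in HUTU-80 (1.39e-10) and 1.09 ± 0.11 higher in NCI-H716 than in MDST8 (3.53e-06). Its order was therefore NCI-H716, MDST8, HUTU-80. In HUTU-80 it was below background with miR-200ba429 and on the miR-200c141 array titled 1:3, which limits the size of its differences from HUTU-80.

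For VASH2, ZCCHC24 and ZFTA the level in MDST8 was the highest. In control cells of MDST8, NCI-H716 and HUTU-80, VASH2 read 7.14, 6.59 and 5.18, and ZCCHC24 8.10, 6.89 and 6.37. ZFTA read 9.16, 7.67 and 7.99 there. From MDST8 to either other line, these controls differed by less than the fitted values that follow. VASH2 was 2.61 ± 0.37 higher in MDST8 than in HUTU-80 (limma adjusted p = 1.20e-04) and 1.83 lower in NCI-H716 than in MDST8 (difference -1.83 ± 0.33, 5.74e-04). Every HUTU-80 array was below background for VASH2, so the size of its difference from HUTU-80 is not measured. The NCI-H716 arrays with a construct were below background for VASH2 too, so its differences from NCI-H716 carry the same limit. ZCCHC24 differed by 2.33 ± 0.29 (4.83e-05) and -1.91 ± 0.26 (6.93e-05) in the same comparisons. It was below background on all HUTU-80 construct arrays and in NCI-H716 with miR-200c141 and with both, so these sizes are not measured either. Between NCI-H716 and HUTU-80 neither passed (VASH2 0.79 ± 0.37, limma adjusted p = 0.1113; ZCCHC24 0.43 ± 0.29, 0.2848). Both passed without the NCI-H716 miR-200c141 array (1.21, 0.0149 and 0.78, 0.0300), and VASH2 without the MDST8 control (0.84, 0.0474). ZFTA was 1.47 ± 0.20 higher in MDST8 than in HUTU-80 (8.83e-05), -2.20 ± 0.18 in NCI-H716 against MDST8 (8.21e-07) and -0.73 ± 0.20 in NCI-H716 against HUTU-80 (0.0104). The last of these did not pass without the HUTU-80 miR-200ba429 array (0.0533) or the NCI-H716 miR-200c141 array (0.0509). ZFTA was below background in NCI-H716 with both clusters, which limits the size of its differences from NCI-H716.

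DPY19L1 also stood highest in MDST8, 1.08 ± 0.16 above HUTU-80 (limma adjusted p = 1.90e-04), with NCI-H716 between them at 0.57 ± 0.16 above HUTU-80 (0.0130) and -0.51 ± 0.15 against MDST8 (0.0109). Its NCI-H716 calls were lost when 1 array was left out: the first at 0.0761 without the HUTU-80 and at 0.0597 without the NCI-H716 miR-200ba429 array, the second at 0.0546 without the MDST8 miR-200c141 array. With the mean of all its probe sets the second was -0.06 (0.6548). TTLL1 was lowest in NCI-H716, by -0.78 ± 0.19 against HUTU-80 (0.0047) and -0.63 ± 0.17 against MDST8 (0.0075). Its NCI-H716 arrays with a construct were all below background, so the size of these differences is not measured. For TTLL1, MDST8 and HUTU-80 did not differ beyond the spread (-0.15 ± 0.19, 0.5933).

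B4GAT1 and OSTM1 passed in no pair of lines in the main fit. B4GAT1 had 0.37 ± 0.18 for MDST8 against HUTU-80 (limma adjusted p = 0.1319). It passed at 0.45 without the NCI-H716 line, or without the array with both clusters of MDST8 or of NCI-H716. OSTM1 had -0.52 ± 0.25 for NCI-H716 against HUTU-80 (0.1195), and passed at -0.58 with the mean of its probe sets (0.0474). This difference was -0.68 without the MDST8 line, or without the array with both clusters of MDST8 or of NCI-H716. For NCI-H716 against MDST8, OSTM1 had -0.41 ± 0.22 (0.1555), and -0.74 without either of those arrays. The lack of a call for B4GAT1 and for OSTM1 thus depends on the arrays used. STON1 was -0.85 ± 0.25 in NCI-H716 against HUTU-80 (0.0141), at levels below background in NCI-H716, and was lost without the HUTU-80 control (0.0975) or the NCI-H716 control (0.0639).

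The genes related to the members by function were read from lists made of textbook partners and family members. Of 77 listed genes 71 were measured, and 60 were above background on at least 1 array. None passed for any construct or for a single cluster, and with both clusters 4 passed (5.63%, against 6.14% of all genes), 1 lower and 3 higher. The median change with both was 0.07 over the related genes, where the 9 genes had -2.38.

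The single fall was within the family of DPY19L1. Of 3 other C-mannosyltransferase genes, DPY19L3 fell by 1.56 with both clusters (SE 0.22, limma adjusted p = 0.0037), while DPY19L4 had 0.07 (0.8472) and DPY19L2, known for its part in sperm head formation, 0.60 (0.2524). DPY19L3 read 7.34, 6.89, 7.29 and 5.79 in MDST8 from control to both and 8.17, 7.11, 8.08 and 6.37 in NCI-H716. In HUTU-80 it read 6.32 in control cells, 6.16 and 6.42 with miR-200c141 and 6.60 with miR-200ba429. DPY19L3 thus stepped down with both clusters in the lines that have such arrays, as DPY19L1 did, but in HUTU-80 it was not below control with miR-200ba429. Its adjusted p stayed under 0.05 in every alternative except the one with no term for the line (0.9991).

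The other lists held no falls in the main fit. Of 13 measured genes of alpha-dystroglycan glycosylation, the pathway of B4GAT1, 0 fell and 1 rose (median 0.11), with POMGNT1 at 0.01, POMT1 at -0.36 and RXYLT1 at 0.43, the last 3 not passing. The one that rose was DPM3, a subunit of the enzyme that makes dolichol phosphate mannose (0.82 ± 0.19, limma adjusted p = 0.0317), in MDST8 from 7.76 to 8.93 and in NCI-H716 from 8.26 to 8.78. It did not pass without the MDST8 array with both clusters (0.44, 0.2524), nor in 9 other alternatives.

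For OSTM1 the partner CLCN7 had 0.13 ± 0.15 with both clusters (limma adjusted p = 0.6601) and TCIRG1, a subunit of the proton pump of osteoclasts, -0.27 (0.4750). Of the 5 genes on that list 1 rose: PLEKHM1, an adaptor in lysosome fusion, at 1.04 ± 0.20 (0.0157). It did not pass with the mean of its probe sets (0.55, 0.0760) or with no term for the line (0.9991). It also did not pass without the MDST8 array with both clusters (0.80) or without the MDST8 line (0.89). None of 4 chloride transporters of endosomes and lysosomes passed in the main fit. CLCN6 had -0.98 ± 0.29 (0.0709), in MDST8 from 7.80 to 6.09 and in NCI-H716 from 6.72 to 6.51. It passed as a fall with the HUTU-80 miR-200c141 arrays kept separate (-0.98, 0.0486). It was -1.67 without the NCI-H716 line and -1.59 without the NCI-H716 array with both clusters. The lack of a call for CLCN6 thus depends on how the arrays were used. CLCN4 had -0.38 ± 0.23 (0.3928).

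VASH2 and TTLL1 both act on tubulin tails, the first by removing a residue and the second by adding residues. Of 27 measured enzymes and cofactors of tubulin tails (19 above background), 0 fell and 1 rose with both clusters (median 0.08). SVBP, the partner of VASH2, had -0.10 ± 0.17 (limma adjusted p = 0.7960) and VASH1 -0.49 ± 0.35 (0.4630). TPGS1, a subunit of the complex of TTLL1, had -0.63 ± 0.25 (0.1636) and TPGS2 0.01 ± 0.13 (0.9799). The gene that rose was TTLL11, a polyglutamylase, at 1.26 ± 0.31 (0.0411), with all 3 controls below background, 5.89 and 5.99 with both clusters, and no pass in 12 of 24 alternatives. Leaving out any of the lines ended the call, at 0.0978 for HUTU-80, 0.2097 for MDST8 and 0.0644 for NCI-H716.

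Of 19 measured endocytic adaptors around the stonins none passed in the main fit (median -0.09). EPS15L1 had -0.60 ± 0.19 (limma adjusted p = 0.0895), CLTB, a clathrin light chain, 0.54 ± 0.15 (0.0533), and STON2, the other stonin, 0.34 ± 0.32 (0.6015). With only genes above background on an array, EPS15L1 (0.0492) and CLTB (0.0383) passed. CLTB also passed in other alternatives, among them its probe set of highest variance (0.84, 0.0068).

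**Figure D5:**
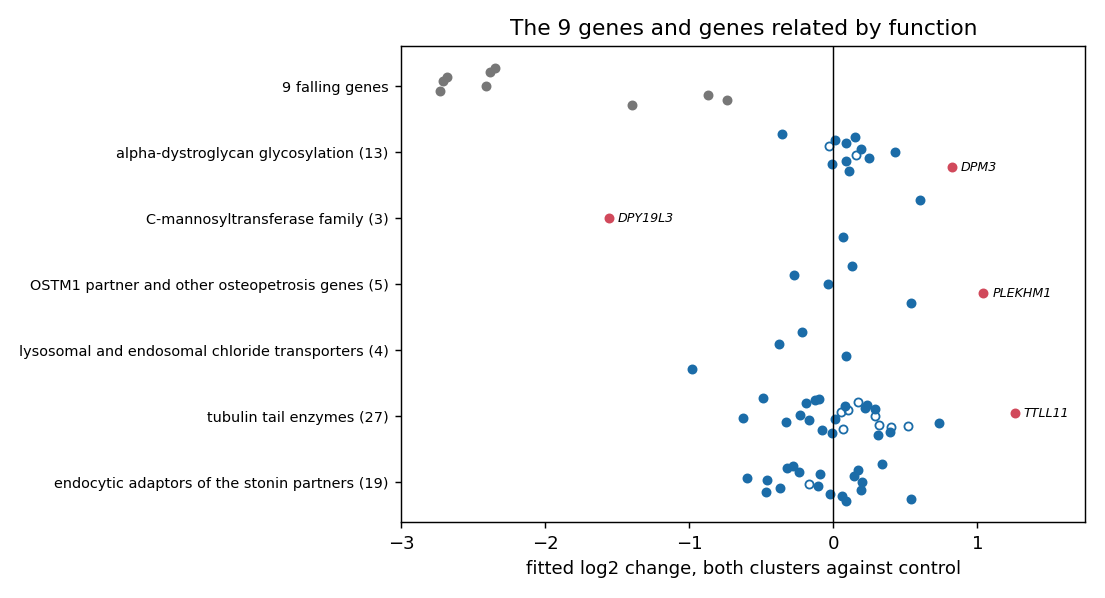
Fitted log2 change with both clusters against control (horizontal axis) for the 9 genes (grey, not tested) and for the measured genes of each related list (rows, with their number); red marks genes with a limma adjusted p under 0.05 and open circles genes below background on every array. The related genes lie around 0, and DPY19L3 at -1.56 is the only one past the threshold on the lower side.

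The 9 genes did not all move alike over the 8 construct samples, in which samples of a line share its control. The Pearson r of their changes had a median of 0.38 over the 36 pairs and was highest for DPY19L1 with B4GAT1 (0.98) and lowest for TTLL1 with C14orf132 (-0.34). The mean change of the 9 genes was -1.05 and -0.81 in HUTU-80 (miR-200c141, then miR-200ba429), -0.60, -0.51 and -2.01 in MDST8 (then both) and -1.42, -0.71 and -1.99 in NCI-H716. Among 7854 other genes above background in every control, those whose changes followed this mean most closely were VAMP7, RALGPS2, CBX1, MYH10 and PAK2, with r from 0.988 to 0.993 over the 8 samples.

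These followed in shape more than in size. RALGPS2, an exchange factor for Ral GTPases, had -1.93 with both clusters in MDST8 and -2.09 in NCI-H716. CBX1, a heterochromatin protein, had -1.19 and -1.34, and MYH10, a nonmuscle myosin heavy chain, -1.35 and -1.21. PAK2, a kinase of the cytoskeleton, had -0.89 and -0.95. VAMP7, a membrane fusion protein, had only -0.44 and -0.43. With 8 samples in 3 lines, correlations of this kind are a description of these arrays.

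The promoters were searched for the E-box bound by ZEB1, since ZEB1 was lower with every construct. In the window from 250 bases before to 50 after the start in RefSeq (GRCh38.p14), 6 of the 9 genes were matched, with 7 promoters in all (not B4GAT1, C14orf132 and STON1). CACCTG, on either strand, was in 0 of the 7 and in 20.6% of 35116 promoters. The shorter ACCTG, which CACCTG contains, was in 0 of the 7 and in 46.8% of them. These letters are not in these windows, which says nothing of sites elsewhere. ZEB1 is a repressor, while the 9 genes were chosen as lower, and its part in their changes was not tested.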

How the data were processed

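Total RNA labelled with biotin was measured on 12 Affymetrix U133 Plus arrays. What the authors deposited is a log2 intensity for each probe set. RMA, named in the submitters' processing notes, corrects background, normalises by quantiles and summarises probes; its software and settings are not given. They ran from 2.05 to 13.8, none was missing, and array medians lay between 3.60 and 3.66. Quantile normalisation makes the arrays' distributions alike, so a change shared by most genes would not be seen.

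Of 54715 probe sets, 40914 named 1 gene, 864 several, 12835 none and 102 were manufacturer's controls. Of the first, 40858 matched the RefSeq gene list, with 0 symbols changed. A gene was represented by its probe set of highest mean over all arrays (19774 genes), while all probe sets of the 9 genes were read. The HUTU-80 miR-200c141 arrays were averaged, leaving 11 samples.

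Groups came from the sample titles. Samples of the same cell line are paired through the line, which was a term of each model. Fits used limma 3.58.1 in R 4.3.3 with a variance trend, two-sided, Benjamini-Hochberg adjusted over all genes at 0.05, and were tested on simulated data. p-values measure the spread between these arrays, which may be technical, and their number limits the precision. The genes, the related lists and the alternatives were chosen with earlier results of these data known. Named besides were ZEB1, the related genes that passed (or the 2 with the largest change in a list with none), and the 5 genes most correlated with the mean of the 9; other related genes were named for their role, after their values were seen. Alternatives changed the probe set rule, the HUTU-80 arrays, the filter, the centring, the trend, the line term, and left out each array or line.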

Additional observations from a re-analysis of the deposited data

Results flagged for a closer look

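C14orf132 had the reading farthest from the others in its set: on the HUTU-80 miR-200c141 array titled 1:3 its change from control was -1.44, against changes of -0.46 to -0.92 on the other 8 construct arrays, and the level there (4.79) was below background. The gap to the nearest array was 0.529 of the whole range. This was 1 such reading in 18 sets tested, and chance gives about 1 in 20.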

How the results depend on the processing

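In all, 27 alternatives were run, with 2310 values for 103 results. Of these, 2156 kept the direction and side of the threshold or moved by less than the spread, 75 moved, 36 lost and 25 gained a call and 18 turned sign. The median fitted change of the 9 genes with both clusters (-2.38) was -1.18 with the mean of all probe sets, which brings in probe sets below background, and -2.16 with no block for the line. It lay between -2.70 and -2.02 when an array or line was left out (-2.70 without the NCI-H716 and -2.02 without the MDST8 array with both clusters). The count of 4 related genes past the threshold with both clusters became 2 with the mean of all probe sets, 2 with no variance trend, 0 with no block, and 1 to 10 with an array or line left out (10 without the NCI-H716 array with both clusters, 1 without that of MDST8 or without MDST8). The count over all genes, 1214, was 0 with no block, 662 with the mean of all probe sets, 679 with no trend and 362 to 1676 with an array or line left out. The 5 genes that differed between NCI-H716 and HUTU-80 were 3 to 6 with an array or line left out (3 without the HUTU-80 miR-200ba429 array).

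Signs turned for these differences between arrays or lines, and with no block: TTLL1 between the single clusters (0.06 with the mean of probe sets, 0.02 with the HUTU-80 pair separate or the 1:3 array alone, 0.01 centred on the median, 0.02, 0.04, 0.08, 0.10 and 0.13 with arrays or NCI-H716 left out, the range being -0.13 to 0.13), VASH2 in the same comparison (0.02, 0.11 and 0.31 with MDST8 miR-200ba429, NCI-H716 or its miR-200c141 array left out, the range being -0.58 to 0.31), OSTM1 between MDST8 and HUTU-80 (0.06 without NCI-H716 or either array with both clusters, range -0.33 to 0.06) and B4GAT1 between NCI-H716 and MDST8 (0.07 without NCI-H716 miR-200c141, range -0.26 to 0.07). With both clusters and no block, C14orf132 was 0.40 and CLCN4 0.37. HUTU-80, which has no array with both clusters, then enters with its own levels. The cause of the other shifts was not tested. With a margin of 0.2 the array with both clusters was still the lowest for 7 of 8 genes in MDST8 and 6 of 8 in NCI-H716. Levels below background limit STON1 and VASH2 in all lines, TTLL1 in MDST8 and NCI-H716, ZCCHC24 in HUTU-80 and NCI-H716, C14orf132 in HUTU-80 and ZFTA in NCI-H716.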
